A study of Mus musculus with 6 samples.

Results

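The genes described here are 10 genes of prostaglandin synthesis, reception and breakdown, picked by gene symbol from a table of 54532 genes. All 10 were in the table. They were picked with the response of these same samples to metformin known, so their differences between the groups are given as a description, without p-values. The cells were MC3T3-E1, a clonal osteoblast precursor line from mouse calvaria, induced for 3 days in osteogenic medium alone (control, 3 samples) or in osteogenic medium with 0.2 mM metformin (3 samples), a biguanide that lowers blood glucose. Both groups received the same β-glycerophosphate, ascorbic acid and dexamethasone, a glucocorticoid. Dose and duration are taken from the study's methods, and those methods call the samples of a group biological replicates. Neither they nor the labels say whether these were separate cultures, so the spread between them may be partly technical.

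Prostaglandins are lipid signals made from arachidonic acid. Cytosolic phospholipase A2 cuts arachidonic acid from membrane phospholipid, a cyclooxygenase turns it into prostaglandin H2, and a terminal synthase turns that into prostaglandin E2, prostacyclin or another prostanoid. Osteoblasts are known for making prostaglandin E2, which acts through receptors that raise cyclic AMP and is removed after oxidation by 15-hydroxyprostaglandin dehydrogenase. Of the pair of cyclooxygenases, the one encoded by Ptgs1 is known as the constitutive enzyme and the one encoded by Ptgs2 as the inducible enzyme.

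The genes were on chromosomes 1 (Pla2g4a and Ptgs2), 2 (Ptgs1, Ptges, Ptges2 and Ptgis), 8 (Hpgd), 10 (Ptges3), 14 (Ptger2) and 15 (Ptger4). Sequences before the annotated starts of Ptgs2, Pla2g4a and Ptgs1 are shown, since the first pair differed most between the groups and Ptgs1 is the other cyclooxygenase. They are from RefSeq (GRCm38.p6), read 5′ to 3′ on the strand of the gene, with capitals for matches to the motifs named next.
Ptgs2 (chr1:150099781-150100030, + strand): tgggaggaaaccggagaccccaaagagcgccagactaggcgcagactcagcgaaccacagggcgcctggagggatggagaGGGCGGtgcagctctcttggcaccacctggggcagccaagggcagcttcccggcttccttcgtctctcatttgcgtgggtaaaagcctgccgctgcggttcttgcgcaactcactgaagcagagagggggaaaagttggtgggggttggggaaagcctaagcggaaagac
Pla2g4a (chr1:149961291-149961540, - strand): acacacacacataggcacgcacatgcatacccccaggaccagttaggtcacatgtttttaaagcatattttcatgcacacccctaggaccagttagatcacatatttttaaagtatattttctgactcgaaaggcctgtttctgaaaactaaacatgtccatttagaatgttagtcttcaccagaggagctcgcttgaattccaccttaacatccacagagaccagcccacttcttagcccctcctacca
Ptgs1 (chr2:36230176-36230425, + strand): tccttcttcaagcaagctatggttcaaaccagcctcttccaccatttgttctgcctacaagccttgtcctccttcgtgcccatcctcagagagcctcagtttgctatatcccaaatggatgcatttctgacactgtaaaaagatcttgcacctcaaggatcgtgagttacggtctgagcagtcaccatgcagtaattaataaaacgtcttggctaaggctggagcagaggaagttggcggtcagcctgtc
Within 250 bases before and 50 bases after the start, 6 motifs were searched on both strands. They were the TATA box, with the letters TATAAA, the half-site of the cyclic AMP response element, with the letters TGACG, and the E-box, with the letters CACGTG. The others were the GC box, spelled GGGCGG, the site of the factor AP-1, spelled TGANTCA, and the CCAAT box, spelled by its name. Counted from the annotated start, the Ptgs2 window held a GC box from base -170. It also held the half-site from base 14, on the other strand, and an E-box from base 17, and the last pair shared 2 bases. That stretch of 25 bases after the annotated start is shown because it is where the motifs overlap. The half-site and the E-box are in capitals. The start itself was not measured here, so whether these motifs lie before or after the start used in these cells is not known.
Ptgs2 (chr1:150100036-150100060, + strand): caccactaCGTCACGTGgagtccgc
The half-site was in 20.8% of all 32851 windows of this length, the E-box in 7.15% and the GC box in 35.7%. The Ptgs1 window, and the Pla2g4a window at the start that the table lists, held none of the 6 motifs. Another Pla2g4a window, at a different annotated start, held a TATA box from base -200, on the other strand, and a CCAAT box from base 10. Of the 10 genes, 9 had a window, and the half-site was otherwise found in that of Ptges3 and the E-box in that of Ptges2. The GC box was also found in the windows of Ptges, Ptges3, Ptger4 and Hpgd. These matches are letters in a window and no measurement of binding.

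The samples held 18399861 to 20652437 reads in the control group and 19256672 to 22111790 with metformin, recovered from the deposited values. Those values are FPKM, reads scaled by gene length and library size. Levels of different genes can be compared only roughly, since the deposited gene length can exceed that of the longest transcript. Control replicate 1 stood apart, with Pearson correlations across genes of 0.960 and 0.952 with the other controls, which had 0.988 with each other, and its deviation from them followed the GC content of the transcript (Spearman rho -0.668, across genes). Of 12 osteoblast markers 11 had at least 1 FPKM in both groups, with summed levels of 11490.5 to 13503 FPKM in controls and 8172 to 8671 with metformin. The markers went both ways, with 2 called higher (Col1a1 and Col1a2), 3 lower (Spp1, Ibsp and Dmp1) and 6 not called, and the sum followed Spp1, at 7703 and 2704 FPKM. In the 6 fits without one sample, the call of Col1a1 held in 3 and that of Col1a2 in 4, and the 3 lower calls held in all 6. With no filter on low values, Col1a1, Col1a2 and Spp1 were not called. Of the haematopoietic markers 2 of 6 had at least 1 FPKM in both groups (Lyz2 and Cd68), with sums of 15.3 to 26.0 and 27.1 to 30.9 FPKM. Lyz2 had 17.99 and 27.2 FPKM and was not called, Cd68 was called lower, at 2.04 and 1.17 FPKM, and Itgam had no read and Ptprc and Adgre1 had means of at most 0.00521 FPKM in either group. Of the adipocyte markers 1 of 5 did (Fabp4), with Cidec at 0 and sums of 1.65 to 3.18 and 1.89 to 2.31 FPKM, and of the endothelial and muscle markers 0 of 5 each, with sums of at most 0.156 and 0.443 FPKM and with Myod1 and Myog at 0. The part of these markers in the results was not tested. In bulk RNA, fewer cells of a kind and less RNA per cell cannot be told apart.

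The question here was how transcripts of the prostaglandin pathway differed when metformin was added to osteogenic medium. Ptgs2 was 13.6-fold and Pla2g4a 2.49-fold higher with metformin, Ptges2 was lower, at 5.21 against 7.61 FPKM, and the abundant genes Ptgs1, Ptges and Ptges3 differed by less. Receptor genes Ptger2 and Ptger4 and the prostacyclin synthase gene Ptgis were under 1 FPKM in every sample, and Hpgd had no read. The test was limma-trend, run on log2(FPKM + 1) for the 12681 genes that averaged at least 0.5 FPKM, which 6 of the 10 genes did. Of these 6, 2 were called higher at an adjusted p under 0.05 (Ptgs2 and Pla2g4a), beside 13.2% of all tested genes, and 1 was called lower (Ptges2), beside 9.28%. Over all 10, the 3 metformin samples lay above the 3 controls for 3 genes and below them for 3, beside 14.6% and 13.5% of the 24801 genes with any read. Among the 12681 tested genes these shares were 23.6% and 20.5%, or 44.1% without overlap in either direction. Since the genes were picked with this comparison known, nothing is read from these counts.

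**Figure D1:**
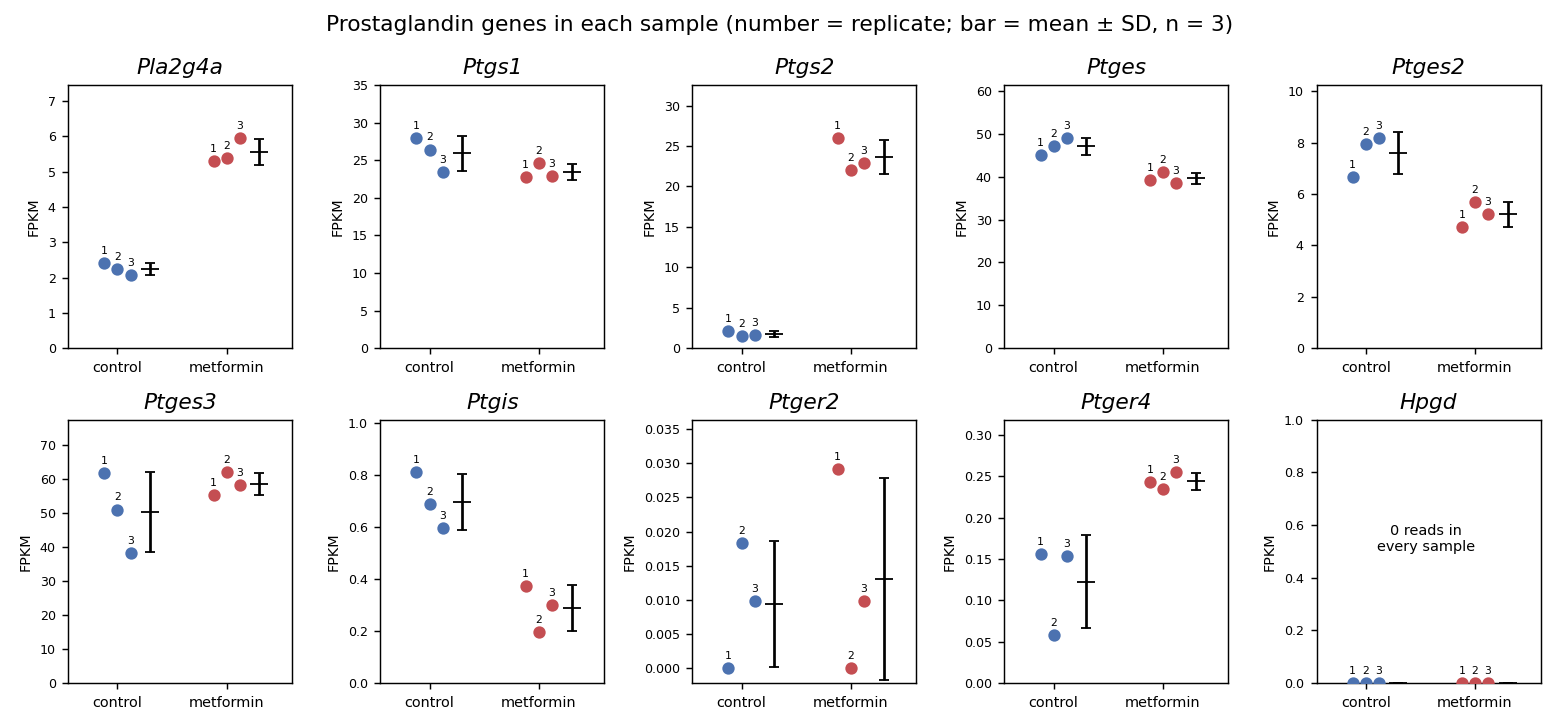
FPKM of the 10 prostaglandin genes in each sample, with a panel and a scale of its own for each gene; points are samples numbered by replicate (blue, control; red, metformin) and bars are the mean ± SD (n = 3). Ptgs2, Pla2g4a and Ptger4 were higher in every metformin sample than in every control, Ptges, Ptges2 and Ptgis were lower, and Hpgd had 0 reads.

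Pla2g4a (ENSMUSG00000056220, chr1:149829618-149961290) encodes cytosolic phospholipase A2, which releases arachidonic acid. Its levels were 2.40, 2.24 and 2.06 FPKM in the controls and 5.30, 5.39 and 5.97 FPKM with metformin. The groups did not overlap, and the lowest metformin sample was above the highest control. The means were 2.23 ± 0.169 and 5.55 ± 0.362 FPKM (SD, n = 3). On the log2(FPKM + 1) scale the change was 1.02 (standard error 0.09), which ranked 473 from the top of the 12681 tested genes. Its call was kept whichever of the 6 samples was dropped.

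Ptgs2 (ENSMUSG00000032487, chr1:150100031-150108227), the inducible cyclooxygenase, had 2.14, 1.46 and 1.5996 FPKM in the controls and 26.0, 21.99 and 22.9 FPKM with metformin. Every metformin sample was far above every control. Behind these values were 179, 140 and 144 reads in the controls and 2366, 2195 and 2043 with metformin, so counting error was small in both groups. The log2 fold change was 3.18 (standard error 0.12), the second largest among all tested genes, and it was 3.79 by voom on the recovered reads, where no constant of 1 FPKM is added. It ranged from 3.10 to 3.28 when any single sample was dropped.

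Ptgs1 (ENSMUSG00000047250, chr2:36230426-36252272), the constitutive cyclooxygenase, had 28.0, 26.4 and 23.4 FPKM in the controls and 22.8, 24.7 and 22.9 FPKM with metformin. The groups overlapped, and Ptgs1 was not called, with a log2 fold change of -0.14 (standard error 0.10). Within a sample the ratio of Ptgs2 to Ptgs1 FPKM was 0.0764, 0.0551 and 0.0683 in the controls and 1.14, 0.890 and 1.00 with metformin. Ptgs2 thus made up 6.24 ± 0.945% of cyclooxygenase FPKM in controls and 50.1 ± 3.11% with metformin (SD, n = 3). The sum of both genes was 27.7 ± 2.57 FPKM in controls and 47.1 ± 1.56 FPKM with metformin, without overlap.

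**Figure D2:**
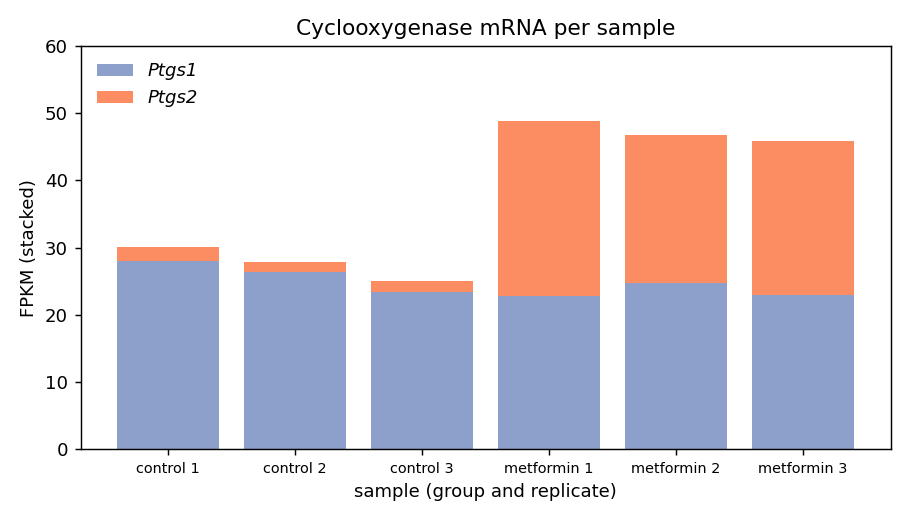
Stacked FPKM of Ptgs1 and Ptgs2 in each of the 6 samples, named by group and replicate. Ptgs1 took nearly the whole bar in the controls, and with metformin Ptgs2 took 47.1 to 53.3% of it.

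The terminal synthase genes Ptges3 and Ptges were the most abundant of the 10 genes, and Ptges2 and Ptgis were far lower. Ptges (ENSMUSG00000050737, chr2:30889471-30929863) encodes microsomal prostaglandin E synthase, the enzyme known to be coupled to the inducible cyclooxygenase. It had 45.1, 47.1 and 49.2 FPKM in the controls and 39.3, 41.1 and 38.5 FPKM with metformin. The metformin samples were all lower, but by little: the log2 fold change was -0.24 (standard error 0.08) and it was not called. Without control replicate 1 it was called lower at a log2 fold change of -0.27.

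Ptges2 (ENSMUSG00000026820, chr2:32395896-32405772), which encodes a second membrane-associated prostaglandin E synthase, had 6.68, 7.96 and 8.20 FPKM in the controls and 4.73, 5.68 and 5.21 FPKM with metformin. The groups did not overlap, at a log2 fold change of -0.47 (standard error 0.11). When single samples were dropped, the call held only without control replicate 1 (-0.55). It was lost without control replicate 2 (-0.44) or 3 (-0.42) and without metformin replicate 1 (-0.41), 2 (-0.53) or 3 (-0.47).

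Ptges3 (ENSMUSG00000071072, chr10:128058954-128077272) encodes the cytosolic prostaglandin E synthase, also known as the Hsp90 co-chaperone p23. It had 61.8, 51.1 and 38.3 FPKM in the controls and 55.4, 62.1 and 58.3 FPKM with metformin, so the metformin samples lay within or just above the spread of the controls. The log2 fold change was 0.24 (standard error 0.17) and was not called. It was called at 0.40 without control replicate 1 and fell to 0.058 without control replicate 3, while control replicate 1 had 1.38 times the mean of the other controls. A pseudogene, Ptges3-ps on chromosome 6, shares 480 identical bases with it and had a mean of 72.6 FPKM, so reads could be split between them. With the reads of both summed, the level was 143 ± 29.5 CPM (reads scaled to library size) in controls and 168 ± 4.24 with metformin (SD, n = 3).

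Ptgis (ENSMUSG00000017969, chr2:167191805-167240604), prostacyclin synthase, had 0.811, 0.687 and 0.595 FPKM in the controls (38, 37 and 30 reads) and 0.373, 0.197 and 0.300 FPKM with metformin (19, 11 and 15 reads). The metformin samples were all lower, with a mean of 0.290 ± 0.0886 against 0.697 ± 0.108 FPKM (SD, n = 3). Its mean over the 6 samples, 0.494 FPKM, was just under the limit for testing. With no filter, or with a limit of 10 reads in every sample in place of 0.5 FPKM, it was tested and called lower. As a share of the FPKM of Ptges, Ptgis was 1.21 to 1.80% in controls and 0.478 to 0.9496% with metformin.

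Both prostaglandin E2 receptor genes that couple to cyclic AMP were close to the limit of detection. Ptger4 (ENSMUSG00000039942, chr15:5206661-5244187), the EP4 receptor, had 0.157, 0.0574 and 0.153 FPKM in the controls (19, 8 and 20 reads) and 0.243, 0.235 and 0.255 FPKM with metformin (32, 34 and 33 reads). All metformin samples were higher, and with no filter on low values Ptger4 was not called. Ttc33 overlaps it on the opposite strand with 12.5 ± 0.983 FPKM in controls and 8.34 ± 0.546 with metformin, the opposite direction (log2 fold change -0.53, adjusted p = 0.00854 by limma-trend), and since the library kit named in the labels does not mark strand, reads where both genes are transcribed cannot be told apart. Ptger2 (ENSMUSG00000037759, chr14:44988195-45003820), the EP2 receptor, had 0, 2 and 1 reads in the controls and 3, 0 and 1 with metformin, and no difference could be measured at this depth.

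Hpgd (ENSMUSG00000031613, chr8:56294585-56321043) encodes 15-hydroxyprostaglandin dehydrogenase, which inactivates prostaglandin E2. It had 0 reads in each of the 6 samples, which allows a level of up to 0.0818 to 0.0976 FPKM per sample (3 reads, counting error only).

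In order of level in the controls, Ptges3 (50.4 ± 11.8 FPKM) and Ptges (47.1 ± 2.04) overlapped, and Ptgs1 (26.0 ± 2.33), Ptges2 (7.61 ± 0.815), Pla2g4a (2.23 ± 0.169), Ptgs2 (1.73 ± 0.360) and Ptgis (0.697 ± 0.108) followed (SD, n = 3). Of these, Pla2g4a and Ptgs2 overlapped as well, with the highest Ptgs2 control at 2.14 FPKM and the lowest Pla2g4a control at 2.06. With metformin the order was Ptges3 (58.6 ± 3.33 FPKM), Ptges (39.6 ± 1.33), Ptgs2 (23.6 ± 2.12), Ptgs1 (23.5 ± 1.07), Pla2g4a (5.55 ± 0.362) and Ptges2 (5.21 ± 0.473). By FPKM, Ptgs2 moved next to Ptgs1 and could not be told apart from it, nor could Pla2g4a from Ptges2. Ptges was 28.0 ± 6.09 times the FPKM of Ptgs2 in controls and 1.69 ± 0.180 times with metformin (SD, n = 3).

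**Figure D3:**
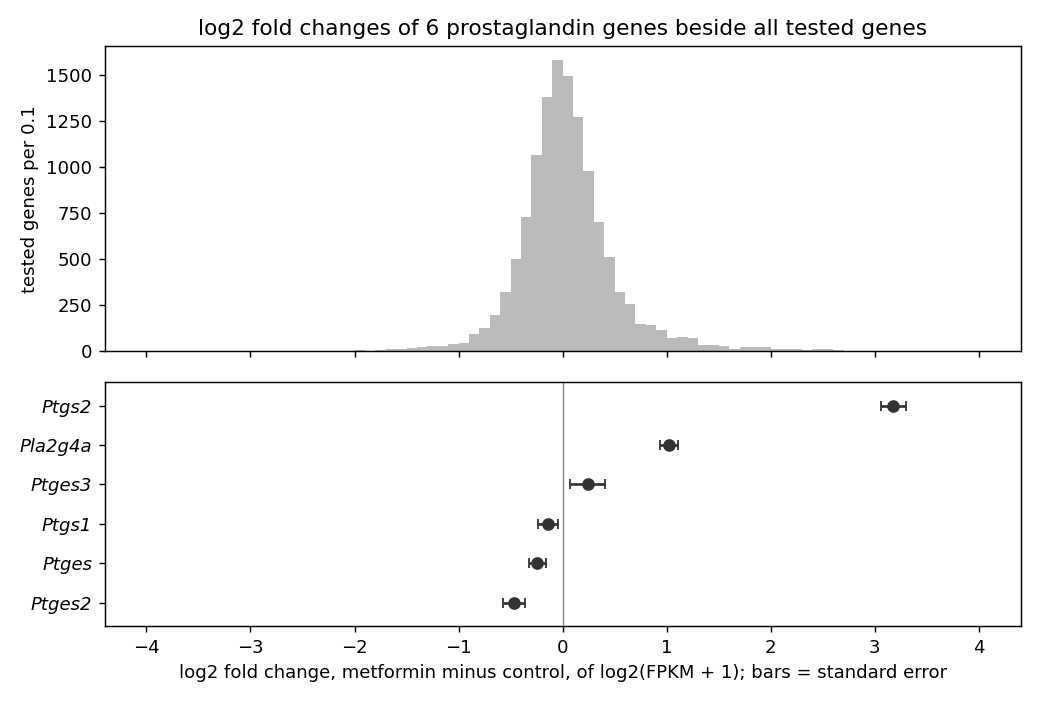
Upper panel, number of tested genes in each 0.1 step of log2 fold change (metformin minus control, log2(FPKM + 1)); lower panel, the 6 tested prostaglandin genes with standard errors. Ptgs2 lies at the far end of the upper distribution, at 3.18, and Ptgs1, Ptges and Ptges3 lie near its centre.

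Pla2g4a and Ptgs2 lie 138740 bases apart on chromosome 1, with their 5′ ends toward each other and transcription running apart. The noncoding gene Ptgs2os starts between them, 67 bases from the start of Ptgs2, and runs the other way. Ptgs2os had 7, 2 and 2 reads in the controls and 30, 22 and 18 with metformin, or 0.0447 ± 0.0380 and 0.265 ± 0.0734 FPKM (SD, n = 3). Ptgs2os2, past the other end of Ptgs2, had 5, 3 and 2 reads in the controls and 10, 8 and 11 with metformin. All metformin samples were above all controls for both, at levels under the limit for testing. With no filter Ptgs2os was called higher and Ptgs2os2 was not. The region with 500000 bases to each side held 5 tested genes in all. Beyond the pair, Tpr, which encodes a nuclear pore protein, was called higher by 0.37 in log2 units (limma-trend adjusted p = 0.0447, standard error 0.10), a call that was lost with no filter on low values. Odr4 (-0.23) and the pseudogene Rbm3-ps (0.56) were not called.

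The rest of the pathway was taken as 7 lists of genes by role, which hold 118 genes of the table. Of these 74 were tested, and 15 were called higher and 7 lower, beside 13.2% and 9.28% of all tested genes. Their median log2 fold change was 0.11 beside 0.0053. The lists were written with earlier results of these data known. These counts, and the counts of each list and the adjusted p-values of their genes given below, are therefore a description. The same shares of all tested genes, 13.2% higher and 9.28% lower, stand beside the counts of each list, and some lists are small. The groups did not overlap for the 22 called genes, beside 44.1% of all tested genes without overlap in either direction. Since a call on these same samples favours genes without overlap, this adds no separate support to the calls. The call held in all 6 fits without one sample for 10 of the 22 called genes, and a replicate block kept 12. Without control replicate 1 the lists had 26 higher and 14 lower genes, and without metformin replicate 1 they had 8 and 2.

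Among 20 tested genes of arachidonate supply, 3 were higher and 1 was lower. The higher genes were the enzymes that lengthen and desaturate fatty acids on the way to arachidonic acid. Fads2 rose from 24.03 ± 0.210 to 74.1 ± 3.59 FPKM (log2 difference 1.58, limma-trend adjusted p = 8.13e-05). Fads1 rose by 0.72 in log2 units (adjusted p = 0.00182) and Elovl5 by 0.70 (adjusted p = 0.00222). The lower gene was Pla2g15, a lysosomal phospholipase, which fell by 0.62 (adjusted p = 0.0390), a call that held in 1 of the 6 fits without one sample. Anxa1, which encodes annexin A1, was the most abundant of the list, with 360 ± 91.6 FPKM in controls and 350 ± 3.44 with metformin.

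Of 5 other prostanoid synthase genes tested, which are carbonyl and aldo-keto reductases, 1 was higher and 2 were lower. Cbr2 rose by 1.31 (adjusted p = 0.00376), Cbr1 fell by 0.52 (adjusted p = 0.0104) and Cbr3 fell by 0.41 (adjusted p = 0.0344, held in 1 of the 6 fits without one sample). Ptgds, the lipocalin-type prostaglandin D synthase, had no read. Akr1b8 was the most abundant of the list, at 33.3 ± 2.10 FPKM in controls and 34.4 ± 1.09 with metformin.

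Of the list of other receptor genes only Ptgfr and Ptgfrn, which encodes a regulator of the Ptgfr product, passed the limit for testing, and neither was called. Ptgfr, the receptor for prostaglandin F2α, had 19.6, 15.5 and 12.1 FPKM in the controls and 10.2, 10.6 and 11.3 with metformin (limma-trend adjusted p = 0.0759 for a log2 difference of -0.49). It was called lower without control replicate 1, at -0.33. Ptger3 and Ptgdr had no read, and Ptger1 had 0.129 ± 0.0444 FPKM in controls and 0.102 ± 0.0237 with metformin. Among genes for the receptors themselves, Ptgfr thus had the highest level in both groups, at 15.7 ± 3.75 and 10.7 ± 0.568 FPKM, and each prostaglandin E2 receptor gene stayed under 0.5 FPKM.

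Of 5 tested genes of prostaglandin transport and inactivation, 3 were higher and 0 were lower. Ptgr1, an enzyme that reduces prostaglandin metabolites, rose from 15.6 ± 1.82 to 26.6 ± 1.87 FPKM (log2 fold change 0.73, adjusted p = 0.00466 by limma-trend). The uptake transporter gene Slco3a1 rose by 0.54 (adjusted p = 0.00439) and Abcc4, which encodes an exporter of prostaglandins, by 0.48 (adjusted p = 0.0212, held in 2 of the 6 fits without one sample). Slco2a1, the main prostaglandin uptake transporter, had a mean of 0.0366 FPKM in controls and 0.0515 FPKM with metformin. In the lipoxygenase and epoxide branch, 0 of 2 tested genes were called, and the more abundant was Ephx1, an epoxide hydrolase, with 181 ± 21.5 FPKM in controls and 205 ± 3.86 with metformin.

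**Figure D4:**
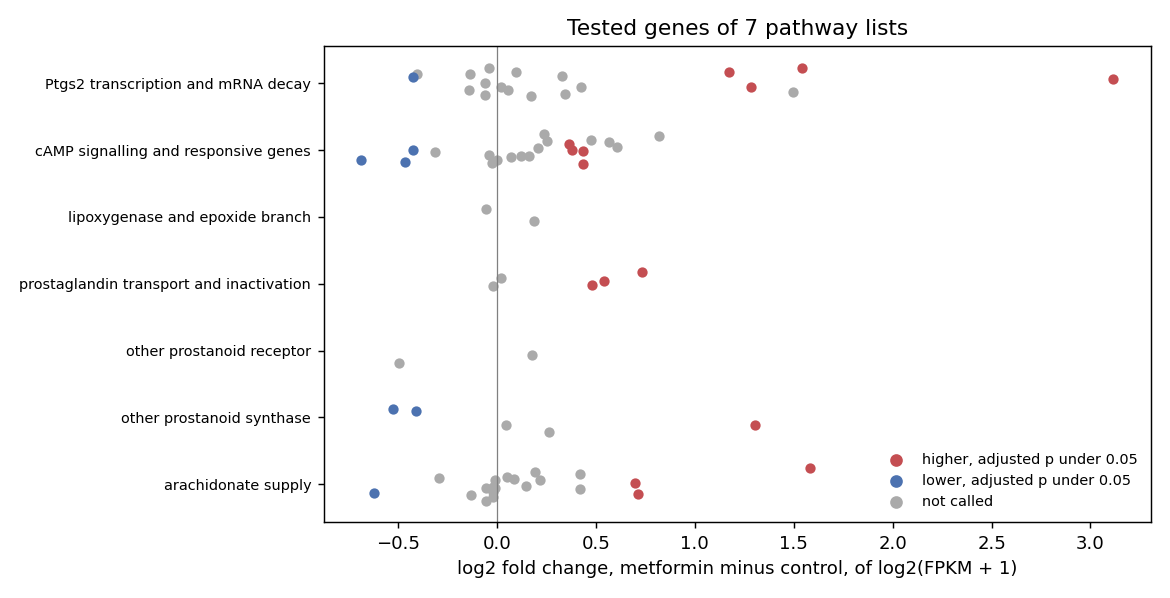
Log2 fold change (metformin minus control, log2(FPKM + 1)) of each tested gene of the 7 pathway lists; red and blue points were called higher and lower. The rightmost point is Fos, at 3.11, and the 2 tested genes of the lipoxygenase and epoxide branch were not called.

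Of 21 tested genes of cyclic AMP signalling and of genes that cyclic AMP is known to induce, 4 were higher and 3 were lower. The higher genes were Pde4d and Pde4a, which encode phosphodiesterases that degrade cyclic AMP, Adcy3, an adenylyl cyclase, and Prkaca, a catalytic subunit of protein kinase A, with log2 fold changes of 0.44, 0.43, 0.38 and 0.36. Their adjusted p-values were 0.0347, 0.0148, 0.0458 and 0.0273 by limma-trend. Adcy3 shares 924 identical bases with Cenpo, and Pde4d overlaps the pseudogene Rps3a3 (3.66 FPKM) on the same strand. Rgs2, which encodes a regulator of G protein signalling, fell by 0.69 (adjusted p = 0.00466), the nuclear receptor gene Nr4a3 by 0.47 (adjusted p = 0.0111) and Adcy9 by 0.42 (adjusted p = 0.0469). Pde4d and Rgs2 passed the limit of 0.5 FPKM only through the group where they were higher, so their calls are not independent of it. Pde4d had 0.338 ± 0.0590 FPKM in controls and 0.815 ± 0.168 with metformin, and Rgs2 had 1.34 ± 0.153 and 0.455 ± 0.0708 FPKM (SD, n = 3). By voom, with no constant added, their log2 differences were 1.28 and -1.54. With the replicate block or in the fits without one sample all of these but Rgs2 lost their call at least once. Prkar1a, the most abundant of the list, had 71.9 ± 6.73 and 70.6 ± 1.65 FPKM.

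Of 19 tested genes for transcription factors and RNA-binding proteins that act on Ptgs2, 4 were higher and 1 was lower. Fos, a subunit of the AP-1 factor, had 6.92, 12.04 and 15.1 FPKM in the controls and 118, 103 and 86.0 with metformin (log2 fold change 3.11, adjusted p = 0.000444 by limma-trend). Its partner Jun rose by 1.17 (adjusted p = 0.00645) and Egr1, a growth factor-induced transcription factor, by 1.28 (adjusted p = 0.0138). Zfp36, which encodes a protein that promotes decay of AU-rich mRNAs, rose by 1.54 (adjusted p = 0.0169), a call that held in 3 of the 6 fits without one sample, and that of Egr1 held in 4. Usf1, an E-box factor, fell by 0.43 (adjusted p = 0.0230), a call that held in 1. Cebpb, the most abundant of the list, had 71.9, 340 and 324 FPKM in the controls and 192, 181 and 171 with metformin, and was called lower without control replicate 1, at -0.87. Nr3c1, the glucocorticoid receptor gene, had 14.1 ± 3.07 and 14.2 ± 0.507 FPKM, and was called higher without control replicate 1, at 0.18. Zfp36 overlaps Gm44710, Jun overlaps Junos and Cebpb overlaps Tmem189 on the opposite strand, and Usf1 shares 762 nearly identical bases with the pseudogene Gm12345, so reads of these pairs could be mixed.

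Among all tested genes, the 5 whose log2(FPKM + 1) followed that of Ptgs2 most closely over the 6 samples were Iqgap3, Adamts5, Dlgap5, D430020J02Rik and Asns, with Pearson correlations of 0.9988 to 0.9991. Between groups this far apart such values are common, and 262 genes had at least 0.99. Iqgap3 and Dlgap5, which act in cell division, had 0.663 ± 0.111 and 1.00 ± 0.0674 FPKM in controls and 4.80 ± 0.122 and 6.74 ± 0.402 with metformin.

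**Figure D5:**
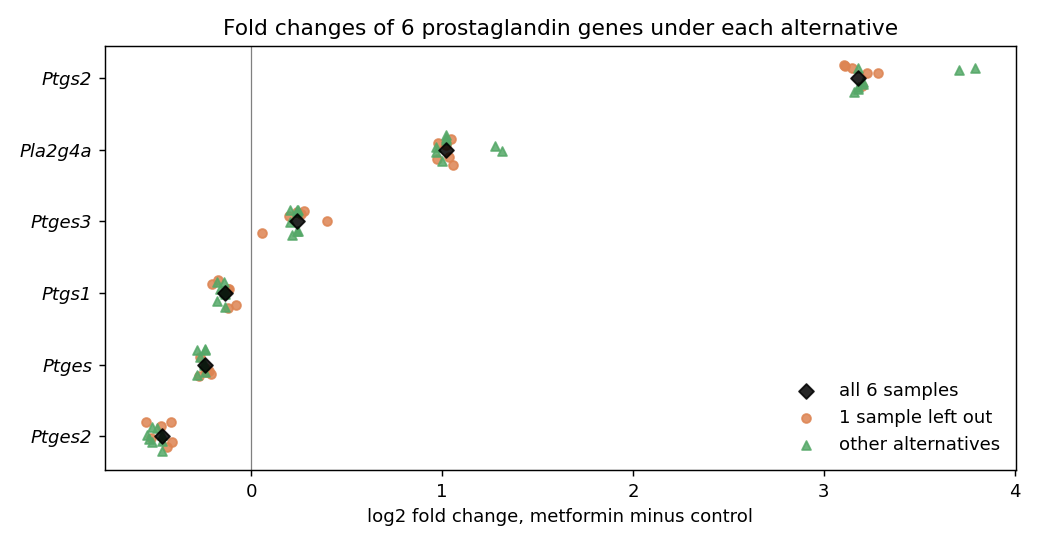
Log2 fold change (metformin minus control) of the 6 tested prostaglandin genes with all samples (diamonds), with 1 sample left out (circles) and under the other alternatives (triangles). None of the 6 changed sign under the 14 alternatives, and Ptges3 came nearest to 0, at 0.058 without control replicate 3.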

How the data were processed

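RNA was sequenced from MC3T3-E1 cells in osteogenic medium with or without metformin (3 samples each). The deposited table names no unit. The values were identified as FPKM: multiplied by the gene length that the authors deposited, 100% of the values above 0 were whole multiples (within 0.01) of 1 step per sample, which gave the reads. The aligner's role, the counting tool and the strand setting are not given in the sources used here. The submitters' processing notes name Bowtie 0.12.2 and the builds mm8 and mm9, but 53499 of the 54532 genes have the coordinates of GENCODE M21 (GRCm38), which was used here. The authors tested with DESeq2.

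Groups were compared with limma 3.58.1 (trend) in R 4.3.3 on log2(FPKM + 1), with Benjamini-Hochberg adjustment over 12681 genes. This scale understates changes of low genes. Unused columns of per-sample values numbered 0. Alternatives were a pseudocount of 0.1, other filters, scaling by total reads, voom, the replicate block and leaving out each sample. A GC correction (spline with 5 degrees of freedom) was chosen after the values were seen. The fits were tested on simulated data. Shared sequence was called at 95% identity over 200 bases (BLAST+ 2.17.0). Figures were drawn with matplotlib 3.10.9.

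The 10 genes and the 7 lists were chosen with earlier results of these data known. Named from each list were the called genes with the 4 largest changes and the most abundant gene, and genes named beyond that rule were chosen after their values were seen. Protein sequences were not used here.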

Additional observations from a re-analysis of the deposited data

How the results depend on the processing

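Of the 6 tested prostaglandin genes, none changed sign. Genes called higher were 2, and 2 to 3 in the fits without one sample. Genes called lower were 1, but 2 with no filter on low values, 2 with at least 10 reads in every sample, 2 with the GC correction, and 0 to 2 in the fits without one sample. The pathway lists had 15 higher and 7 lower genes, with 8 to 26 and 2 to 14 in the fits without one sample. Over all genes 1670 were higher and 1177 lower, with 938 to 2969 and 495 to 2590 in those fits, the maxima without control replicate 1. With the replicate block, 2 pathway genes and 698 of all genes were lower, and no prostaglandin gene lost its call. Same-numbered samples did not deviate together (correlations across genes of -0.0533, 0.000265 and -0.0549). Since control replicate 1 stood apart and could mask a shared deviation, these values cannot settle whether same-numbered samples were paired. With the GC correction 2434 genes were lower and with the replicate block and GC correction 1890. The GC correction moved the share of calls that were higher from 58.7% to 45.9%, and all log2 fold changes by a median of -0.0542. The cause was not tested. Levels under 0.5 FPKM rest on few reads and their differences are limited by depth.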

Other observations

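Some pathway genes below the limit for testing had samples that did not overlap between the groups. Those given here were chosen after their values were seen, and not all are given. Among the 24801 genes with any read, metformin samples lay above the controls for 14.6% and below for 13.5%. With no filter on low values, Ptgdr2 was called lower and Fam213b and Tbxas1 were not called. Pde4b was called higher in that fit, with 1, 1 and 5 reads in the controls and 17, 21 and 17 with metformin. Fam213b, which encodes a prostamide and prostaglandin F synthase, had 0 reads in each control and 2, 18 and 10 reads with metformin. Ptgdr2, a prostaglandin D2 receptor, had 29, 22 and 22 reads in the controls and 1, 6 and 5 with metformin, and it overlaps Ccdc86, which had a mean of 6.32 FPKM. Tbxas1, thromboxane synthase, had 4, 0 and 7 reads in the controls and 15, 14 and 30 with metformin, and it overlaps Hipk2 on the opposite strand, which had a mean of 6.72 FPKM. The lipoxygenase genes Alox5 and Alox15 had no read in any sample.

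Gnas, which encodes the stimulatory G protein subunit that links prostaglandin E2 receptors to cyclic AMP, had 1.28 FPKM in control replicate 1 and 8.34 and 11.2 FPKM in the other controls. With metformin it had 11.2, 9.63 and 10.05 FPKM. Its log2 fold change was 0.82 with all samples and 0.077 without control replicate 1, and it was called in neither fit. The longest transcript of Gnas has a GC content of 57.8%, and that of Cebpb, which was also low in control replicate 1, has 67.2%. Other genes of high GC content differed in this sample. Junb (62.6%) had 0.277, Dagla (58.8%) 0.799 and Adcy9 (57.0%) 1.12 times the mean of the other controls. These genes were picked as examples and do not show how common each direction was. Across the tested genes the deviation of this sample fell with GC content (Spearman rho -0.668), and Adcy9 went against that trend. The part of GC content in these values was not tested.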
